A study of Rattus norvegicus with 6 samples.

Results

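The transcripts of 9 BMP antagonists, Nog, Chrd, Chrdl1, Chrdl2, Grem1, Twsg1, Fst, Fstl3 and Bambi, were followed in primary rat chondrocytes with and without retinoic acid (RA). The 9 were a named family, taken by an exact match of the gene symbol, and each symbol stood for 1 of the 18923 genes in the count tables. RNA-Seq compared chondrocytes of wild-type newborn (24 h old) female Sprague-Dawley rats kept for 24 h in high-glucose medium with serum and penicillin-streptomycin (CON, 3 samples) with cells that received 1 µM all-trans RA for 24 h in such a medium (RA, 3 samples). All cells had been released from cartilage with collagenase and expanded in culture to passage 1 or 2, no sort of the cells is described, and the labels name no vehicle for CON. The RNA-Seq samples are described as independent, and the replicates of the study in general as biologically independent, without saying whether each came from its own animal or culture. P-values measure the spread between these samples.

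Bone morphogenetic proteins (BMPs) are secreted ligands that join type I and type II serine/threonine kinase receptors, after which Smad proteins carry the signal to the nucleus and switch on targets such as the Id genes. Most antagonists bind the ligand outside the cell and keep it from its receptors. In cartilage, BMP signaling drives the formation and the maturation of chondrocytes, and noggin, chordin and gremlin limit it in the developing limb and joint.

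Of the 9 antagonists, Grem1, Chrdl2 and Chrdl1 fell and Fst rose under RA. Grem1 and Fst carried the changes at substantial levels, Grem1 going from 32.2 ± 3.16 FPKM in CON to 18 ± 2.57 in RA and Fst from 6.17 ± 0.908 to 10.7 ± 0.254 (± SD, 3 samples each). Chrdl2 had the largest change, with 0.198 of its CON level left in RA, but both chordin-like genes were near 1 FPKM or below. With 1 sample left out, Chrdl1 passed the test in only 1 of 6 fits, as Nog did. Nog passed the test at a smaller change with all 6 samples, and Chrd, Twsg1, Fstl3 and Bambi did not pass. FPKM, fragments counted per length of the gene and per total of the sample, is used for levels, since it allows genes of different length to be compared.

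Changes were tested with edgeR on the deposited read counts, by its quasi-likelihood method, over 13438 genes. A gene was called when its Benjamini-Hochberg adjusted p over all genes tested was below 0.05 and its log2 fold change, RA minus CON, lay beyond 0.58 in either direction. By this rule 4 of the 9 antagonists were called, 1 higher and 3 lower, where 4.96% of all genes tested were called, 2.67% higher and 2.29% lower. The median log2 fold change of the 9 was -0.41, against -0.0057 over all genes tested. All 9 passed the filter on low counts, but Chrdl2 did so through CON alone, since 3 CON samples and 1 RA sample reached its level of 0.329 CPM, so values are also given for the other 8 antagonists, of which 3 were called, with a median of -0.33.

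Total counts lay between 29370025 and 38007486 per sample, so that 3 counts, taken here as the limit for a count of 0, correspond to between 0.0789 and 0.102 CPM (counting error only). CON sample 1 stood apart from its group. Over the genes tested, the mean chi-square per gene between the counts of a pair of samples was 39.4 and 63.5 between this sample and the other 2 CON samples, 8.13 between those 2, and between 6.4 and 8.09 within RA. Without CON sample 1, 6 of the 9 antagonists were called, 1 higher and 5 lower (5 of the 8 without Chrdl2, 1 higher and 4 lower), with 5.54% of all genes called. As a check of the treatment, several retinoid response genes were called and higher in RA, the RA-degrading enzymes Cyp26a1 and Cyp26b1 with log2 fold changes of 3.35 (SE, the standard error, 0.276) and 2.65 (SE 0.115), and Rarb, Dhrs3 and Tgm2 at 0.63 or more. Crabp2 and Stra6 of the same list were not called, at 0.40 (edgeR adjusted p = 0.0859) and -0.44 (edgeR adjusted p = 0.495). Rarb lost the call in 5 of 6 fits to 5 samples, all but the one without CON sample 1, and Tgm2 lost it without RA sample 3 (0.84).

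The cultures were rich in cartilage transcripts in both groups, and these fell with RA. All 15 chondrocyte markers, among them Col2a1 and Acan, were lower in RA and 13 of them were called (12 without CON sample 1). Their summed level was 9095 to 11117 FPKM in CON and 5551 to 5916 in RA. The summed fibroblast and perichondrium markers (9 genes, 1 called in each direction) lay at 3766 to 4961 FPKM in CON and 4866 to 5122 in RA, the tendon markers (3 genes, 0 called by edgeR or limma and 1 by DESeq2, 2 with an unadjusted p below 0.05 in edgeR) at 19.1 to 27.5 and 26.5 to 29.3, and the osteoblast markers (6 genes, 1 called) at 8.25 to 9.56 and 8.27 to 8.52. Summed macrophage markers (6 genes, 4 tested, 0 called by edgeR, DESeq2 or limma, 1 with an unadjusted p below 0.05 in edgeR) went from 13.7 to 14.9 FPKM in CON to 16.3 to 17.7 in RA, most of it Cd14, with Ptprc at or below 0.027 and Adgre1 at or below 0.0104 in every sample. Skeletal muscle markers (5 genes, 1 called, which passed the filter through RA alone) summed to 4.72 to 6 FPKM in CON and 6.96 to 7.87 in RA, and endothelium markers (4 genes, 1 tested, 0 called by edgeR, DESeq2 or limma, 0 with an unadjusted p below 0.05) to at most 0.178 in any sample, with Emcn at 0 in all 6. In bulk RNA fewer cells of a type and less RNA per cell cannot be told apart, and the part of these shifts in the changes of the antagonists was not tested.

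The promoters of 7 of the 9 antagonists were read from RefSeq (GRCr8), matched by symbol, as the 250 bases before the gene start, all on the minus strand. Shown here are 4 of them, printed 5′ to 3′ on the strand of the gene: Grem1 and Chrdl1, which fell, Nog, which passed the test at a smaller change, and Fstl3, which did not pass the test and holds the most half-sites. Capitals mark the retinoid receptor half-site AGGTCA and its variants, which are AGTTCA and further GGGTCA and lastly GGTTCA, the GC-rich Smad motif GGCGCC and the TATA box TATAAA, searched on both strands, so that a half-site on the other strand appears as its reverse complement. The counts of the files were made on another build, Rnor_6.0, and no coordinates are given for them.
Grem1 promoter, chr3:120978320-120978569: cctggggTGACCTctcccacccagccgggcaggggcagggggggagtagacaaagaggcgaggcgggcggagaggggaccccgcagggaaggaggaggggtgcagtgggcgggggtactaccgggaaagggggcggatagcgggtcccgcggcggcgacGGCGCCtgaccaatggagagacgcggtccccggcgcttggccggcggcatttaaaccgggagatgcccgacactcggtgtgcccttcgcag
Chrdl1 promoter, chrX:111789662-111789911: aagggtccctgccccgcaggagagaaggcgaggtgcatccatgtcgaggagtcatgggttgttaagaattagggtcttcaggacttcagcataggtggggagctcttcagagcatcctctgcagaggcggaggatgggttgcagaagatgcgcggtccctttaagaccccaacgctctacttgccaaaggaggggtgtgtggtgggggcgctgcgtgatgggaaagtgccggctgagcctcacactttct
Nog promoter, chr10:74627502-74627751: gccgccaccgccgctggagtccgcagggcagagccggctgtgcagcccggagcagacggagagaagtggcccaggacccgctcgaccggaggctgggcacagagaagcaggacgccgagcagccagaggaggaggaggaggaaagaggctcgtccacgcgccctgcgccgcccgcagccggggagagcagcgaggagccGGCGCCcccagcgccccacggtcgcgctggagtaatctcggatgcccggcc
Fstl3 promoter, chr7:10579845-10580094: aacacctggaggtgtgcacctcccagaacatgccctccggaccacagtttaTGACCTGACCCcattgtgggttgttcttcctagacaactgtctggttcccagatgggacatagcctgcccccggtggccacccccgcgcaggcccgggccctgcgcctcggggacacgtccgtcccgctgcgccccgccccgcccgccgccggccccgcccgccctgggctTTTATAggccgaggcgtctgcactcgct

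Among these windows, the Grem1 promoter held 1 AGGTCA on the opposite strand, 243 to 238 bases before the start, and 1 GGCGCC at 91 to 86 bases before it. The Chrdl1 window held none of these motifs, and the Nog window held only GGCGCC, at 51 to 46 bases before the start. The Fstl3 promoter held 2 half-sites that overlap by 1 base, with AGGTCA at 199 to 194 and GGGTCA at 194 to 189 bases before the start, both on the opposite strand, and a TATA box on the opposite strand 28 to 23 bases before it. Of the 7 windows 3, those of Chrd, Grem1 and Fstl3, held a half-site, where 39.1% of the 33469 promoters of the same length did, and 4, those of Chrd, Nog, Grem1 and Bambi, held GGCGCC, where 8.69% did. No window held 2 half-sites as a direct repeat spaced by 1, 2 or 5 bases, the arrangement that retinoid receptor pairs bind best, which 0.194%, 0.137% and 0.326% of all promoters held. The GC content was between 68.8% and 78.4% in 6 of the windows and 58% in Chrdl1, against a median of 51.2%. A match describes the letters in the window and no match says nothing about binding elsewhere.

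Noggin, encoded by Nog (ENSRNOG00000023683), is a secreted dimer that covers the receptor-binding faces of BMPs. Its level was 5.34, 7.15 and 6.82 FPKM in CON samples 1, 2 and 3 and 4.41, 4.73 and 4.05 in RA samples 1, 2 and 3. All 3 RA samples lay below all 3 CON samples, and CON sample 1 was the lowest of its group. The log2 fold change was -0.56 (SE 0.142, 95% interval -0.89 to -0.24, edgeR adjusted p = 0.0419), past the threshold of the test and just short of the fold change required for a call. At the same adjusted p with no fold change required, 9.82% of all genes passed. Nog was called without CON sample 1, at -0.68 (edgeR adjusted p = 0.00176). With any other sample left out it no longer passed the test, with edgeR adjusted p between 0.0907 and 0.172, the highest over all alternatives.

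Chordin, encoded by Chrd (ENSRNOG00000001750), binds BMPs through cysteine-rich repeats and is cut by tolloid proteases, which free the ligand. The FPKM of Chrd was 6.62, 10.3 and 10.4 in CON and 6.56, 7.08 and 7.15 in RA. The groups overlapped only through CON sample 1, which lay within the range of RA, while CON samples 2 and 3 were above every RA sample. The log2 fold change was -0.41 (SE 0.163, 95% interval -0.78 to -0.03, edgeR adjusted p = 0.177), and without CON sample 1 it was -0.59 (edgeR adjusted p = 8.93e-05, a call). Its adjusted p ran from 8.93e-05 to 0.382 over all alternatives, and of the fits with 1 sample left out the one without CON sample 1 alone made the call.

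Chrdl1 (ENSRNOG00000004330) and Chrdl2 (ENSRNOG00000018394) encode chordin-like proteins, shorter relatives of chordin that also bind BMPs. Chrdl1 stood at 0.999, 1.24 and 1.06 FPKM in CON and 0.697, 0.663 and 0.7 in RA, on counts of 126, 153 and 165 and of 85, 80 and 89. The RA samples were close to each other and all below CON. Its log2 fold change was -0.69 (SE 0.152, 95% interval -1.03 to -0.34, edgeR adjusted p = 0.0247). Fitted to 5 samples, Chrdl1 lost the call 5 times of 6, at -0.60 without CON sample 2, -0.70 without CON sample 3 and -0.69, -0.67 and -0.70 without RA samples 1, 2 and 3 (adjusted p between 0.0514 and 0.106 in these fits), while the size of the change stayed between -0.75 and -0.60 in the 6 fits. On log2(FPKM + 1), where the change of a low gene is understated, limma put it at -0.31, not a call.

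Chrdl2 was counted 50, 63 and 57 times in CON and 6, 8 and 17 times in RA. In FPKM these are 1.01, 1.29 and 0.927 in CON and 0.125, 0.168 and 0.339 in RA. Every RA sample was below every CON sample by a wide margin, although RA sample 3 was at more than the sum of the other two RA samples. The log2 fold change was -2.34 (SE 0.372, 95% interval -3.19 to -1.48, edgeR adjusted p = 0.0057), and it stayed called in all 6 fits to 5 samples, from -2.86 without RA sample 3 to -2.07. On log2(FPKM + 1) it was -0.78. Chrdl2 passed the filter through CON alone, the group where it was higher, so these calls are no support beyond its values.

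Gremlin 1, encoded by Grem1 (ENSRNOG00000026053), is a secreted cystine-knot protein that binds BMP2, BMP4 and BMP7. The level of Grem1 was 35.2, 32.5 and 28.9 FPKM in CON and 21, 16.8 and 16.3 in RA. All RA samples were lower than all CON samples, with RA sample 1 the highest of its group. The log2 fold change was -0.85 (SE 0.108, 95% interval -1.10 to -0.60, edgeR adjusted p = 0.00185), and it was called under all 16 alternatives, between -0.96 and -0.78. At this level Grem1 was the most abundant antagonist that changed, at the percentile 77 of the mean FPKM of all genes tested.

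Twisted gastrulation, encoded by Twsg1 (ENSRNOG00000013340), binds BMPs and chordin and can act for or against the ligand. Twsg1 was the most abundant antagonist in RA, with 35.2, 34.5 and 33.5 FPKM in CON and 36.4, 34.3 and 34.6 in RA. The groups overlapped, and the log2 fold change was 0.016 (SE 0.0551, 95% interval -0.11 to 0.14, edgeR adjusted p = 0.89). The interval excludes a change of the size needed for a call in either direction.

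Follistatin, encoded by Fst (ENSRNOG00000011631), holds activins tightly and BMPs more weakly. Fst was at 5.5, 5.81 and 7.2 FPKM in CON and at 11, 10.7 and 10.5 in RA. Every RA sample was higher than every CON sample, and the spread within RA was small. The log2 fold change was 0.78 (SE 0.132, 95% interval 0.47 to 1.08, edgeR adjusted p = 0.00771), and Fst was called under all 16 alternatives, between 0.70 and 0.92. It was the only one of the 9 antagonists that was called higher. Its relative Fstl3 (ENSRNOG00000009311), a secreted binder of activins and myostatin, was at 6.15, 6.22 and 7.14 FPKM in CON and 5.95, 6.78 and 6.18 in RA. These ranges overlapped, with a log2 fold change of -0.06 (SE 0.111, 95% interval -0.31 to 0.20, edgeR adjusted p = 0.786), short of the size of a call throughout the interval.

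Bambi (ENSRNOG00000016066) encodes a membrane protein that resembles a type I receptor without a kinase domain and blocks signaling at the receptor, and it is itself a known BMP target. Its FPKM was 6.29, 7.57 and 7.41 in CON and 5.86, 6.6 and 5.6 in RA. CON sample 1 lay below the highest RA sample, so the groups overlapped. The log2 fold change was -0.25 (SE 0.124, 95% interval -0.53 to 0.03, edgeR adjusted p = 0.263), and -0.33 without CON sample 1 (edgeR adjusted p = 0.0726). Over all alternatives its adjusted p ran from 0.0726 to 0.556, with no call.

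**Figure D1:**
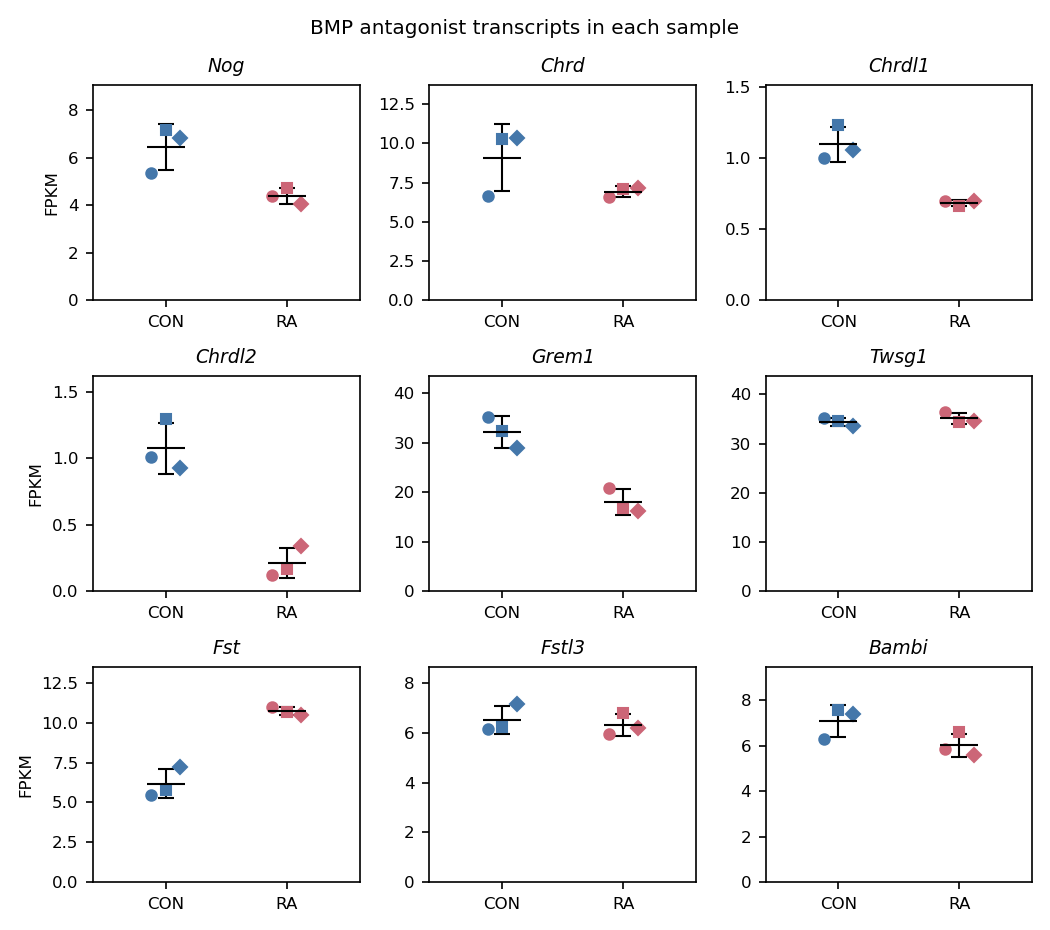
FPKM of each BMP antagonist (vertical axis, starting at 0 in every panel) in the CON and RA samples, with circle, square and diamond for samples 1, 2 and 3 of a group, which were treated as unpaired, and with bars for the mean ± SD. RA lies below CON without overlap in Nog, Chrdl1, Chrdl2 and Grem1 and above it in Fst, and the lowest CON point of Chrd is sample 1, at 6.62 FPKM.

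In all, 4 of the 9 antagonists had every RA sample below every CON sample and 1 had every RA sample above (3 and 1 of the 8 without Chrdl2), where 15.1% and 16.8% of all genes tested did so (compared in normalized CPM, counts per total).

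**Figure D2:**
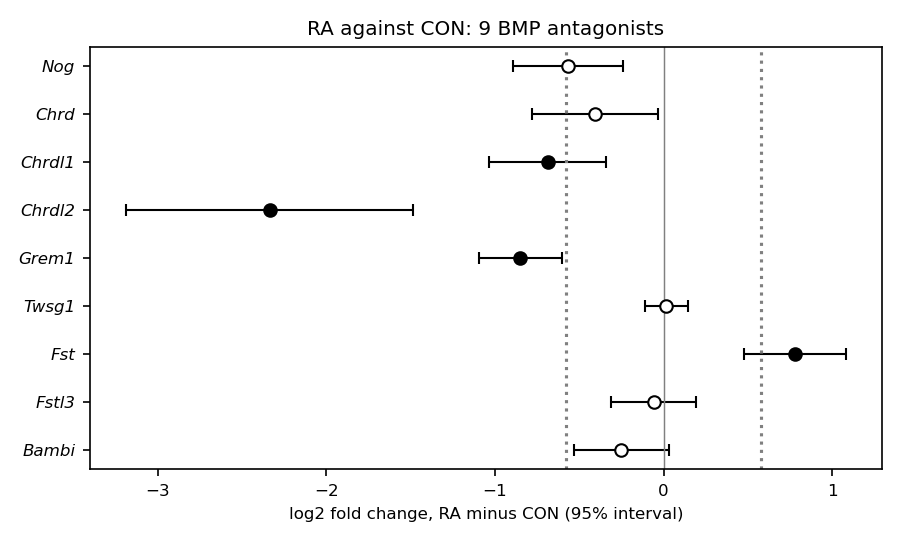
Log2 fold change, RA minus CON, of the 9 antagonists from edgeR (points) with 95% intervals (bars). Filled points were called, and the dotted lines mark 0.58 in both directions. Chrdl2 lies farthest out at -2.34, and Twsg1 has the narrowest interval, around 0.016.

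The order of the levels differed between the groups. In CON, Twsg1 and Grem1 came first and their samples overlapped, then Chrd, Bambi, Fstl3, Nog and Fst, among which each neighbour overlapped the next, and last Chrdl1 and Chrdl2, which overlapped each other. In RA, Twsg1 was above Grem1 in every sample, with a lowest Twsg1 value of 34.3 FPKM against a highest Grem1 value of 21. Fst, at rank 7 in CON, came to rank 3 in RA, above Chrd in all samples, with a lowest value of 10.5 FPKM against a highest Chrd value of 7.15. Nog lay below Bambi, with a highest value of 4.73 FPKM against a lowest Bambi value of 5.6, and Chrdl2 lay below Chrdl1, both without overlap. Chrd, Fstl3 and Bambi still overlapped as neighbours.

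**Figure D3:**
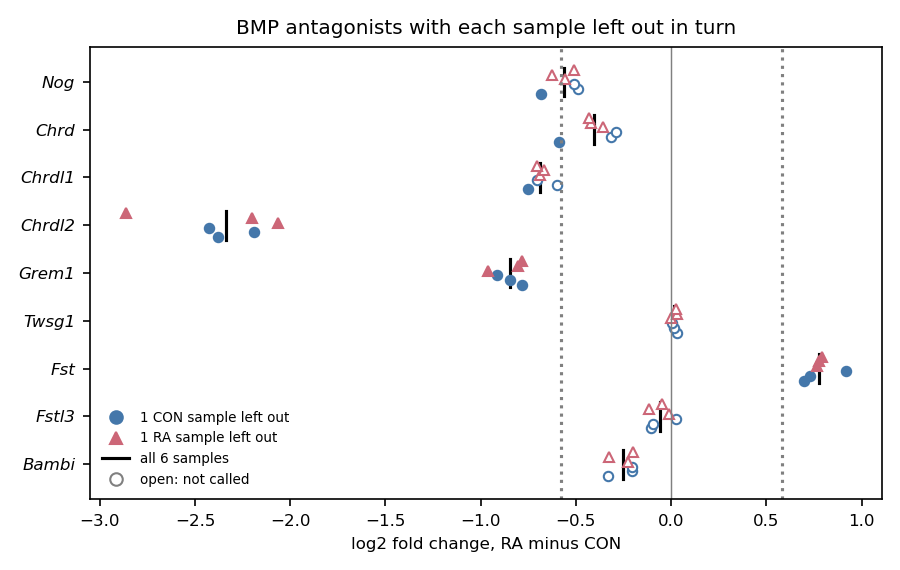
Log2 fold change of each antagonist with all 6 samples (vertical bars) and with 1 sample left out (circles for CON samples, triangles for RA samples, filled where called). Grem1, Chrdl2 and Fst are filled throughout, Chrdl1 only without CON sample 1, and Chrd and Nog only without that sample, at -0.59 and -0.68.

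The pattern of Grem1, Chrdl2 and Fst over the 6 samples was compared with that of every other tested gene at 1 FPKM or more, by the Pearson correlation of log2(CPM + 0.5). For Chrdl2 the added 0.5 weighs heavily, since its RA samples were at 0.2, 0.272 and 0.549 CPM. Chrdl2 was most like Mageh1, Slc7a3 and Asrgl1 (r of 0.996, 0.993 and 0.992), Grem1 most like Abca9, Xpot and Tox (0.997 each), and Fst most like Diaph1, Itpr1 and Rhog (0.999, 0.996 and 0.995). The 6 points share 1 treatment contrast, and 452, 640 and 855 of 11341 or 11342 genes had an r above 0.9 with Chrdl2, Grem1 and Fst, so that these names describe the samples only.

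Of 73 other genes of the BMP pathway listed, 68 were in the files and 50 were tested. Of these 50, 12 were called, 9 higher and 3 lower, where 4.96% of all genes tested were called, 2.67% higher and 2.29% lower. The median log2 fold change of the 50 was 0.033, against -0.0057 over all genes tested. The same shares and median of all genes apply to each list below. Sostdc1 passed the filter on low counts through CON alone, and without it 11 of 49 were called, 9 higher and 2 lower, with a median of 0.035. Among the ligands, Bmp4, Bmp7 and Gdf10 rose, which makes 3 of 8 BMP and GDF ligands tested (median 0.17). Bmp4 (ENSRNOG00000009694), a ligand that gremlin, noggin and chordin bind, stood at 11.2, 12.4 and 12.2 FPKM in CON and 19.3, 18.7 and 18.3 in RA. All RA samples were above CON, with a log2 fold change of 0.64 (SE 0.0696, edgeR adjusted p = 8.64e-04). Bmp7, which noggin also binds, went from 0.901 ± 0.199 to 2 ± 0.257 FPKM (± SD, 3 samples each), a log2 fold change of 1.13 (SE 0.212), and was no longer called when CON sample 2 (1.04), RA sample 1 (1.05) or RA sample 2 (1.10) was left out. Gdf10, also named BMP3B, rose from 6.08 ± 0.279 to 16.4 ± 1.49 FPKM (± SD, 3 samples each), a log2 fold change of 1.42 (SE 0.0879, edgeR adjusted p = 5.59e-05). The highest BMP or GDF ligand of the rest, Gdf5, a joint ligand, was at 12.7 ± 0.766 FPKM in CON and 13.1 ± 0.465 in RA (± SD, 3 samples each), a log2 fold change of 0.031.

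Of 5 tested ligands of the activin and inhibin group, to which follistatin binds, 1 was called (median -0.15). Inhbe, which encodes the activin subunit βE, fell from 5.35 ± 0.366 to 2.11 ± 0.404 FPKM (± SD, 3 samples each), a log2 fold change of -1.35 (SE 0.154, edgeR adjusted p = 0.00109). Inhba, the subunit of activin A and the most abundant of the group in CON and RA, was at 11.9, 11.6 and 9.07 FPKM in CON and 9.3, 8.48 and 6.93 in RA. The fitted log2 fold change of Inhba was -0.41 (SE 0.133, edgeR adjusted p = 0.102), which did not pass.

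**Figure D4:**
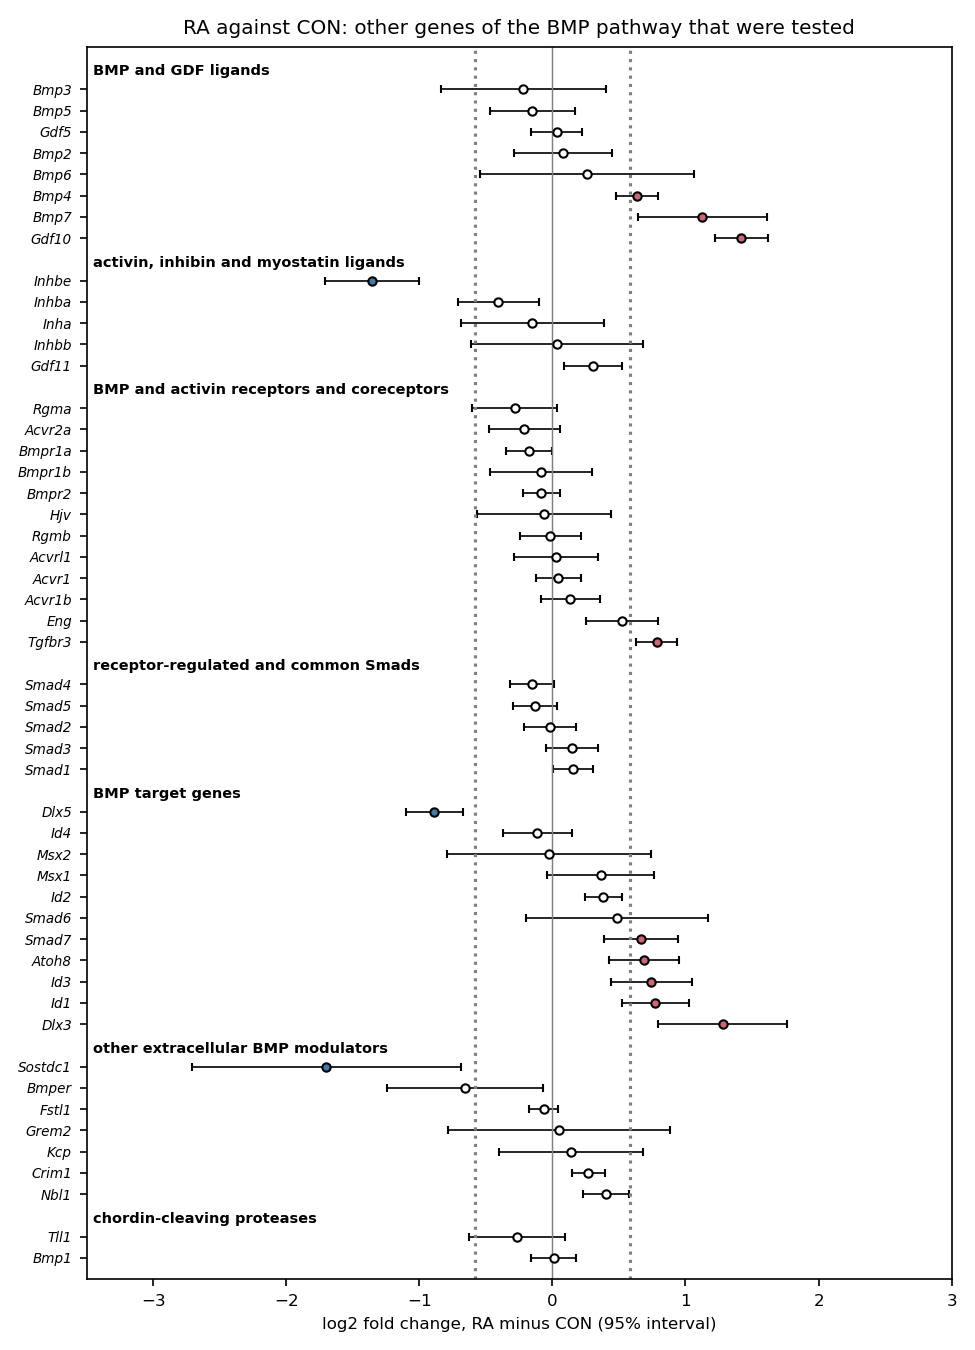
Log2 fold change, RA minus CON, of the 50 other tested genes of the BMP pathway, grouped by role, with 95% intervals from edgeR. Red points were called higher, blue points lower and open points not called, and the dotted lines mark 0.58 in both directions. Most of the called genes lie among the ligands and the BMP targets, with Gdf10 at 1.42 and Dlx3 at 1.28, while the points of the Smads lie between -0.16 and 0.15.

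Of the 12 receptors and coreceptors tested 1 was called (median -0.039). It was Tgfbr3, or betaglycan, a coreceptor that rose from 9.62 ± 0.284 to 16.7 ± 1.03 FPKM (± SD, 3 samples each), a log2 fold change of 0.78 (SE 0.0668, edgeR adjusted p = 2.37e-04). Eng, its relative endoglin, was at 0.52 (edgeR adjusted p = 0.0277, all 6 samples) and was called without CON sample 3, at 0.64. The most abundant receptor, Bmpr1a, was at 40.5 ± 3.99 FPKM in CON and 36.2 ± 1.41 in RA (± SD, 3 samples each), a log2 fold change of -0.18 (edgeR adjusted p = 0.208). Of the 5 tested Smads that carry the signal, 0 were called by edgeR, DESeq2 or limma, and 1, Smad1, had an unadjusted p below 0.05 in edgeR. The most abundant was Smad4, with 37.6 ± 3.15 FPKM in CON and 34.1 ± 0.54 in RA (± SD, 3 samples each). Of the 2 tested chordin-cleaving proteases, 0 were called by edgeR, DESeq2 or limma and 0 had an unadjusted p below 0.05 in edgeR, with Bmp1 at 33 ± 2.32 and 33.5 ± 1.38 FPKM (± SD, 3 samples each).

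Of 11 tested BMP target genes 6 were called, 5 higher and 1 lower, where 4.96% of all genes tested were called. The median log2 fold change of these targets was 0.49. Id1, an inhibitor of helix-loop-helix factors and a direct Smad target, was at 65.5, 87 and 86.8 FPKM in CON and 141, 138 and 134 in RA. Id3, the most abundant of these targets, was at 169, 244 and 243 in CON and 360, 377 and 372 in RA. In both, every RA sample was above every CON sample and CON sample 1 was far below the other CON samples. The log2 fold changes were 0.77 for Id1 (SE 0.11, edgeR adjusted p = 0.00328) and 0.74 for Id3 (SE 0.134, edgeR adjusted p = 0.00975), and without CON sample 1 they were 0.65 and 0.58, still called. Smad7, an inhibitory Smad, had 0.66 (SE 0.122), and lost the call without CON sample 1 (0.54) or RA sample 1 (0.62). Atoh8, a helix-loop-helix factor, had 0.69 (SE 0.114), and 0.56, no longer a call, without CON sample 1. The homeobox gene Dlx3 rose from 0.8 ± 0.21 to 1.97 ± 0.109 FPKM (± SD, 3 samples each), and Dlx5 fell from 13.8 ± 0.774 to 7.5 ± 0.437 (± SD, 3 samples each), with log2 fold changes of 1.28 (SE 0.212) and -0.89 (SE 0.0937). Smad6, the other inhibitory Smad, was at 6.03, 14.5 and 15.6 FPKM in CON and 16.3, 15.7 and 19.1 in RA, so that its log2 fold change of 0.49 (edgeR adjusted p = 0.364) was 0.17 without CON sample 1. Without that sample, 4 of the 11 targets and 9 of the 50 pathway genes were called, where 5.54% of all genes were.

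Outside the 9 antagonists, 7 further extracellular modulators of BMP were tested, with 1 call (median 0.052, and 0.094 without the called gene). Sostdc1, a sclerostin relative, reached the filter level of 0.329 CPM in 3 CON and 0 RA samples. It thus passed the filter only through the group where it was higher, and its call is no support beyond its values. It was low, at 0.369 ± 0.0914 FPKM in CON and 0.114 ± 0.0522 in RA (± SD, 3 samples each), with a log2 fold change of -1.70 (SE 0.441, edgeR adjusted p = 0.0475), and was called in 0 of 6 edgeR fits to 5 samples, where it lay between -1.95 and -1.36. Nbl1, a gremlin relative also named DAN and more abundant than any of the 9, rose less than the fold change of a call, from 73.5 ± 6.1 to 97.9 ± 2.9 FPKM (± SD, 3 samples each), a log2 fold change of 0.40 (SE 0.0754, edgeR adjusted p = 0.0121). It was singled out after its values were seen, as were Eng, Gdf5, Smad6 and Smad1. The most abundant of this list, Fstl1, was at 429 ± 11.8 FPKM in CON and 414 ± 9 in RA (± SD, 3 samples each), a log2 fold change of -0.07 (edgeR adjusted p = 0.438).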

How the data were processed

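RNA-Seq was done on poly(A) RNA of 3 CON and 3 RA samples, grouped by their labels. For each of 18923 genes and each sample the authors deposited a whole-number count of reads, without normalization, and an FPKM value. The FPKM of the authors equals the count scaled by gene length and sample total, as tested on 11039 genes. The submitters' processing notes name HISAT2, HTSeq 0.13.5 and Rnor_6.0. The annotation, the use of strand and the treatment of reads shared by gene copies are not given in the sources used here. Where genes shared a symbol, that with the most counts was taken.

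The counts were fitted across all genes with edgeR 4.0.16 in R 4.3.3 (filterByExpr with a minimum count of 10, TMM, glmQLFit and glmQLFTest, no covariates). Standard errors were the log2 fold change divided by the root of its F statistic, and intervals used the degrees of freedom of the fit. An exact permutation test of 3 against 3 samples cannot go below 0.10. The antagonists, lists, naming rule and alternatives were chosen with earlier results of these data known. The rule named all 9 antagonists, every called gene of the BMP lists, the highest gene of each list, and the genes most like the 3 called antagonists with the largest changes. Of the retinoid response list, 1 gene is not reported here. Alternatives used DESeq2 1.42.0, limma 3.58.1 on log2 FPKM with pseudocounts of 0.1 and 1, other scalings, filters and calls, a replicate block and each sample left out in turn. The script was tested on simulated counts of 13438 genes for RA against CON, where edgeR called 100% of genes changed by a log2 fold of 2, 91.8% of those changed by 1, and 4 unchanged genes. The simulation gave every gene the same spread and held no sample that stood apart like CON sample 1. It held no changes smaller than 1, so these figures do not carry over to the smaller changes of most antagonists.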

Additional observations from a re-analysis of the deposited data

How the results depend on the processing

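Of the 142 alternative values for single antagonists, 131 kept their direction and their side of the call, 6 of Chrdl1 lost the call, and 3 gained it, for Chrd and Nog without CON sample 1 and for Nog with no fold change required. Another 2 reversed, both close to 0: with a sample left out Fstl3 lay between -0.12 and 0.025 (without CON sample 3) and Twsg1 between -0.0031 (without RA sample 1) and 0.029. The number of antagonists called was 2 when FPKM of at least 1 was required in 3 samples, a filter that removed Chrdl1 and Chrdl2 and left 7 in the test (527 of 11390 genes, or 4.63%, were called there), and 3 to 6 (2 to 5 of the 8 without Chrdl2) when any 1 sample was left out, which also leaves fewer samples. Over all genes 667 were called, 434 on log2(FPKM + 1), 1319 with no fold change required, 1017 with an unadjusted p, 752 by DESeq2, and between 480 and 755 with a sample left out. The pathway genes called numbered 9 to 12 and the retinoid response genes 4 to 6 with a sample left out. Samples of the same replicate number deviated from their group means with correlations of 0.0928, -0.0123 and 0.0118. With 3 samples per group these values cannot show whether the numbers pair the samples. With the replicate block, 684 genes and 4 antagonists were called. The labels do not say whether samples share an animal. Chrdl2 rested on 6 to 63 counts per sample. The causes of these moves were not tested.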

Other observations

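Levels of an antagonist and of a ligand that it binds can be set side by side in each sample, since FPKM is scaled by length. These 4 pairs were chosen after the values were seen and restate changes given above, so they are no independent evidence. The FPKM of Grem1 was 3.14, 2.61 and 2.37 times that of Bmp4 in the CON samples and 1.09, 0.899 and 0.889 times in the RA samples. Transcripts of the antagonist thus outnumbered those of the ligand in CON and were close to equal with them in RA. The ratio of Nog to Bmp4 went from 0.536 ± 0.0535 to 0.234 ± 0.0163 and that of Chrd to Bmp4 from 0.755 ± 0.144 to 0.369 ± 0.0257 (± SD, 3 samples each). The ratio of Fst to Inhba, the transcript of the activin A subunit, moved the other way, from 0.463, 0.502 and 0.794 in CON to 1.18, 1.26 and 1.51 in RA. In each of the 4 pairs the groups did not overlap, but the pairs were chosen with these values known. The two-sided exact permutation test gave p = 0.1, the smallest that 3 against 3 samples allow, and after such a choice it adds no support. RNA ratios do not measure the amounts of protein.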
